A study of Homo sapiens with 12 samples.

Results

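The copper chelator TEPA (tetraethylene pentamine) was tested at normal oxygen in EA.hy926 cells by comparing 6 of the 12 RNA sequencing libraries of the series, 3 treated and 3 control. The members were chosen by their labels, and the filter, the scaling and the spread between libraries came from these 6 libraries. EA.hy926 is a human hybrid line, from the fusion of umbilical vein endothelium with A549 lung carcinoma cells, so it carries endothelial and epithelial genes together. The TEPA group had the chelator at 50 µM for 16 h, followed by another 8 h at normal oxygen. The control group had no TEPA and normal oxygen throughout, and no source used here says what it received in place of the chelator. The other 6 libraries, hypoxia and TEPA+hypoxia, were kept at 1% oxygen for the last 8 h and served to ask whether a difference seen at normal oxygen was also seen at low oxygen. All 4 groups came from this one line in serum-containing medium, and the labels do not say whether the 3 replicates of a group were separate cultures. Every p-value therefore measures the spread between these libraries, which may be technical.

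Copper enters cells mainly through the transporter SLC31A1 (CTR1), is passed by small chaperones to copper enzymes and is pumped out by ATP7A and ATP7B. Metallothioneins are small cysteine-rich proteins that bind zinc and copper, and their genes are switched on by the zinc-sensing factor MTF1, which binds metal response elements in their promoters. A second regulator, NRF2, is held down by KEAP1 and, when released by oxidants or reactive metals, switches on genes of glutathione synthesis, NADPH supply and haem breakdown. The title of the series names copper and the transcription factor HIF-1, which drives the response to low oxygen and is degraded at normal oxygen.

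Promoter sequences are shown for 3 genes of metal handling, because the metallothionein MT1E was called and MTF1 binds such elements. MT2A and MT1X, tested and not called, and the zinc exporter gene SLC30A1, not called either, are the ones shown; the window of MT1E is not shown here. Each is the 250 bases before the RefSeq start (GRCh38.p14), written 5′ to 3′ on the strand of the gene. Capitals mark the core of the metal response element, TGCACNC or TGCGCNC, searched on both strands.
MT2A, chr16:56608334-56608583, plus strand: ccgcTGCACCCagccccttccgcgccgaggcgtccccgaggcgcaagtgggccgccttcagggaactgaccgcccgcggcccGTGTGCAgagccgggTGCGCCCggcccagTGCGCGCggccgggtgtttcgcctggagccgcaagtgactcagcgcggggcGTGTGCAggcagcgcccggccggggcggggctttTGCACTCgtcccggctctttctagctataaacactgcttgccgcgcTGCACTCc
MT1X, chr16:56682220-56682469, plus strand: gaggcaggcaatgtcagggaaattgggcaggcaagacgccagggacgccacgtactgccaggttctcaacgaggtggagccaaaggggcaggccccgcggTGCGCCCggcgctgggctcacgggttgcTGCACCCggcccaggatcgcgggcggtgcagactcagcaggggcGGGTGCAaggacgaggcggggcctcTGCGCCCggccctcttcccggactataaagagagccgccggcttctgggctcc
SLC30A1, chr1:211579162-211579411, minus strand: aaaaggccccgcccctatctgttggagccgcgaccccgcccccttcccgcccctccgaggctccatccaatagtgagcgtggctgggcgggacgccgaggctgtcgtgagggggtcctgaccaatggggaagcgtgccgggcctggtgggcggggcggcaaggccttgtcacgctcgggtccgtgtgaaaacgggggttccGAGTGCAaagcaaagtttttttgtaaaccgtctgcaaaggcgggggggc
The window before MT2A held 7 matches, 5 of them on the strand shown and 2 on the other. The MT1X window held 4 matches and that of SLC30A1, a zinc exporter gene, held 1. Of 35116 promoter windows of this length, 24.8% held at least 1 match and 6.48% held 2 or more. A match is a run of letters and no record of binding.

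Few genes passed the test. With the edgeR quasi-likelihood F-test over 13821 genes, 2 were higher with TEPA (KRT15 and CLIC3, 0.0145% of those tested) and 5 were lower (MT1E, HMOX1, TRIM16, TRIM16L and ABHD4, 0.0362%) where a call is a p below 0.05 after Benjamini-Hochberg adjustment over all genes. At an unadjusted p under 0.05, 486 genes were higher (3.52%) and 573 lower (4.15%). The 3 TEPA libraries lay above all 3 control libraries for 897 genes (6.49%) and below them for 1004 (7.26%). The median log2 fold change over all genes was -0.000609, and 50.2% of genes had a negative value. For genes of at least 5 CPM (counts scaled to library size), the median 95% interval reached 0.203 on the log2 scale to either side. That interval is for 1 gene without adjustment, and calls after adjustment took larger differences. The smallest called was -0.60 (ABHD4), and NQO1 at -0.32 was not called.

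**Figure D1:**
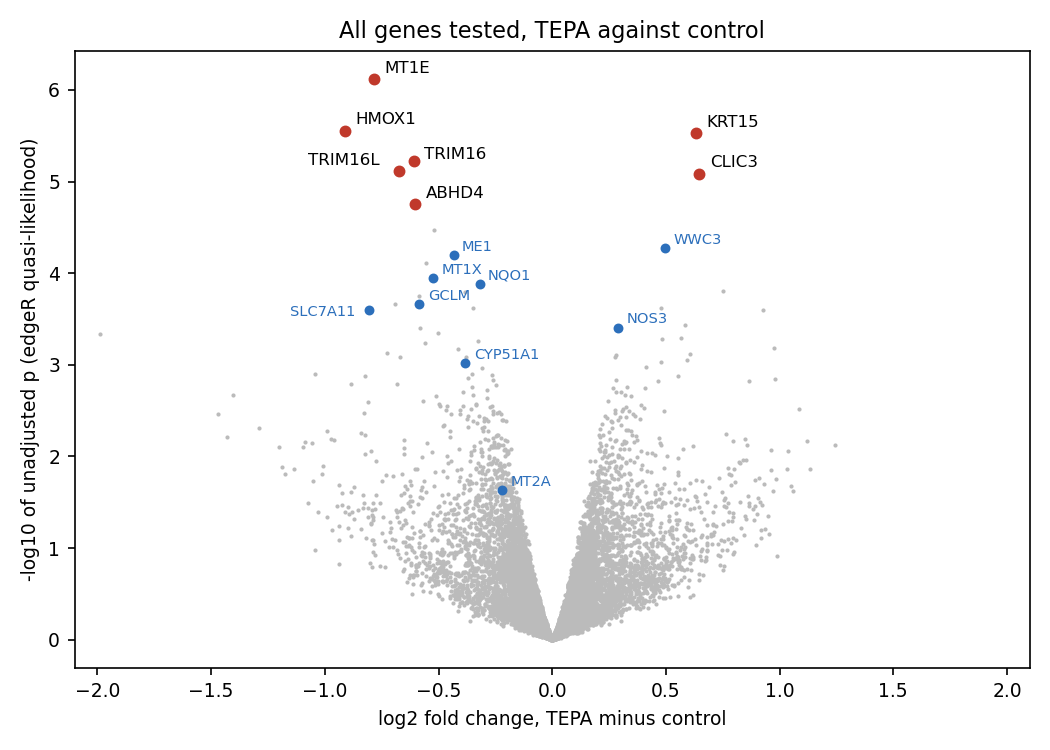
Each point is 1 of the 13821 genes tested, with the log2 fold change (TEPA minus control) on the x axis and -log10 of the unadjusted p on the y axis. Red points are the 7 called genes, of which 5 lie to the left, and blue points are genes named in the text that were not called.

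The number of calls rested on single libraries. Without control 1, TEPA 1, TEPA 2 or TEPA 3 no gene was called by edgeR, with 531, 759, 724 and 1005 genes at an unadjusted p under 0.05 and smallest adjusted p-values of 0.175, 0.0921, 0.103 and 0.17. Without control 3, 119 genes were called higher and 104 lower, and without control 2 there were 2 and 8, with all 7 genes among them in both fits. DESeq2 on all 6 libraries called 8 and 17, again with all 7 among them. Libraries differed in how their gene levels tracked GC content. The Spearman correlation of a library's deviations with GC was -0.39, -0.572 and 0.421 in control 1 to 3 and 0.192, 0.487 and -0.205 in TEPA 1 to 3, across genes. With GC content and transcript length corrected in each library, all 7 genes were called, within totals of 4 higher and 14 lower. Control libraries held 16693713 to 21049891 counts and TEPA libraries 16190579 to 24778944, so that the floor of 3 counts lay between 0.121 and 0.185 CPM (counting error only).

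The endothelial label was checked against marker genes. PECAM1 lay between 615.6 and 698.6 CPM and CDH5 between 682 and 792 CPM over the 6 libraries. Other endothelial markers were lower, with TEK between 47.03 and 65.07 CPM and VWF between 6.629 and 10.82 CPM. The epithelial keratin KRT8 lay between 1026 and 1270 CPM. The leukocyte gene PTPRC, the epithelial cadherin gene CDH1 and the fibroblast gene DCN had 0 counts in every library.

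The metallothionein MT1E fell with TEPA, while MT1X and MT2A had lower means without a call. MT1E (chromosome 16, 56625781 to 56627112) measured 38.24, 33.26 and 38.37 CPM in control 1 to 3 and 21.38, 21.79 and 20.7 CPM in TEPA 1 to 3. Every TEPA library lay well below every control, and the treated libraries were closer to each other than the controls were. The means were 36.62 ± 2.909 and 21.29 ± 0.5465 CPM (SD, n = 3), a log2 fold change of -0.78 ± 0.09 (SE; 95% interval -0.98 to -0.59), or 41.9% lower, with an edgeR adjusted p of 0.0105.

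MT1X (chromosome 16, 56682470 to 56684196) measured 29.58, 25.28 and 30.61 CPM in the controls and 19.61, 19.63 and 20.21 CPM with TEPA. Its groups did not overlap either, and its log2 fold change was -0.52 ± 0.10, but the edgeR adjusted p was 0.13 and it was not called. With the GC and length correction it was called, at an adjusted p of 0.00712. MT2A had 804.1, 682.6 and 891.9 CPM in the controls and 690.6, 712.6 and 636.3 CPM with TEPA. Control 2 lay inside the range of the treated libraries, and the log2 fold change of -0.22 ± 0.09 was not called (edgeR adjusted p = 0.612). These were the 3 of 11 metallothionein genes with enough counts to test, since MT1A, MT1B, MT1F, MT1G, MT1H, MT1M, MT3 and MT4 had at most 3 counts in total. Metallothionein genes are close copies of each other, so reads may have been divided between them, and the share given to each is uncertain.

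MTF1, the factor that senses zinc for these genes, had overlapping groups. It measured 18.16, 21.71 and 18.28 CPM in the controls and 21.3, 19.69 and 18.42 CPM with TEPA (log2 fold change 0.04 ± 0.11, 95% interval -0.19 to 0.27), a value that changed sign when single libraries were left out. SLC30A1, which exports zinc and is itself a textbook MTF1 target, measured 23.66, 24.52 and 20.14 CPM in the controls and 19.41, 14 and 16.51 CPM with TEPA. Its groups stayed apart by a narrow margin, and its log2 fold change of -0.44 ± 0.13 was not called (edgeR adjusted p = 0.45). Across the zinc transporters, 16 of 24 could be tested, none was called, 7 had a negative log2 fold change and the median was 0.02.

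**Figure D2:**
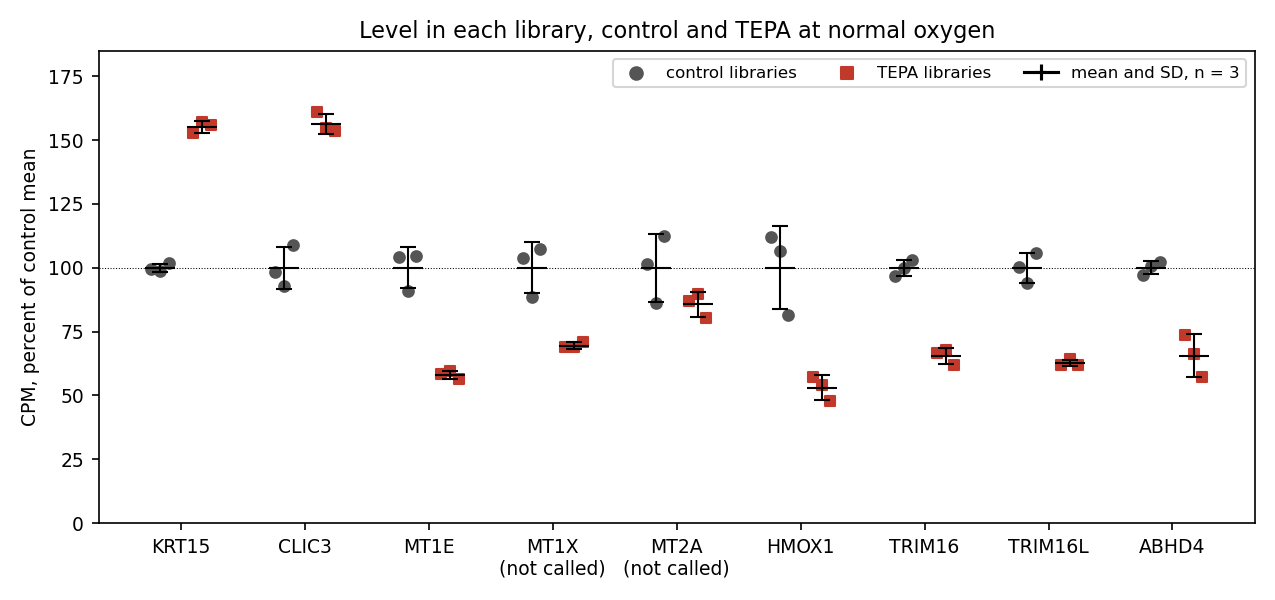
CPM in each library as a percent of the control mean of the gene, for the 7 called genes and the metallothioneins MT1X and MT2A, with controls as grey circles and TEPA as red squares. Crossbars and error bars are the mean and SD of 3 libraries; the groups overlap for MT2A and for no other gene shown.

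Haem oxygenase had the largest estimated drop of the 7 called genes. HMOX1 (chromosome 22, 35381096 to 35394207), which breaks down haem to iron, carbon monoxide and biliverdin, measured 47.89, 45.52 and 34.88 CPM in control 1 to 3 and 24.56, 23.1 and 20.46 CPM in TEPA 1 to 3. Control 3 was the lowest control and still lay above every treated library. The log2 fold change was -0.91 ± 0.12 (95% interval -1.17 to -0.66), a drop of 46.8%, with an edgeR adjusted p of 0.0137.

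TRIM16 and TRIM16L also fell. TRIM16 (chromosome 17, 15627966 to 15684311), a tripartite-motif protein with roles in the handling of damaged lysosomes and protein aggregates, measured 35.22, 36.31 and 37.52 CPM in the controls and 24.2, 24.72 and 22.55 CPM with TEPA. Its log2 fold change was -0.61 ± 0.09 (edgeR adjusted p = 0.0189). TRIM16L (chromosome 17, 18697998 to 18736112), listed by RefSeq as a transcribed pseudogene, measured 23.94, 22.41 and 25.2 CPM in the controls and 14.79, 15.32 and 14.79 CPM with TEPA. Its log2 fold change was -0.67 ± 0.10 (edgeR adjusted p = 0.0189). The groups lay apart for both. The sequences are near-identical copies, so their reads may be shared and the pair cannot be taken as 2 separate changes.

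ABHD4 (chromosome 14, 22598300 to 22612963), a lipase that acts on N-acyl phospholipids, measured 57.07, 59.08 and 60.01 CPM in the controls and 43.24, 38.84 and 33.58 CPM with TEPA. The controls were tight and the treated libraries more scattered, with no overlap. The log2 fold change was -0.60 ± 0.09 (edgeR adjusted p = 0.0352).

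NRF2 target genes lay mostly on the lower side. Of 34 listed genes, 29 could be tested: 2 were called lower (HMOX1 and TRIM16L), 0 were called higher, 27 had a negative log2 fold change and the median was -0.18, against -0.000609 over all genes. In 16 of the 29 (55.2%) the TEPA libraries all lay below the controls, beside the 7.26% of all genes given above, and 16 had an unadjusted p under 0.05 in the lower direction, beside 4.15%. The number of negative values ran from 23 to 28 over the alternative settings tried, and the number called lower from 0 to 7. The list had been seen to move in these data before this comparison was set, so the counts are a description.

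SLC7A11 and GCLM, of glutathione supply, had controls spread widely. SLC7A11, the cystine importer that feeds glutathione synthesis, measured 145.4, 177.6 and 97.96 CPM in control 1 to 3 and 92.32, 69.55 and 78.75 CPM in TEPA 1 to 3. Control 3 lay just above the highest treated library, and the log2 fold change of -0.80 ± 0.16 was not called (edgeR adjusted p = 0.16). GCLM, the regulatory subunit of the enzyme that makes the first bond of glutathione (named after its values were seen), measured 94.01, 99.67 and 68.13 CPM in the controls and 61.29, 55.12 and 58.23 CPM with TEPA. It had a log2 fold change of -0.58 ± 0.12 and the same adjusted p of 0.16, and again control 3 was the lowest control. With the GC and length correction both were called, at edgeR adjusted p-values of 0.00304 for SLC7A11 and 0.00712 for GCLM.

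The NADPH-related targets had smaller and tighter differences. NQO1, a quinone reductase, measured 845.8, 837.5 and 872.7 CPM in the controls and 682, 713.8 and 653.3 CPM with TEPA, a log2 fold change of -0.32 ± 0.06 with an edgeR adjusted p of 0.139. ME1, the cytosolic malic enzyme that supplies NADPH, measured 62.56, 70.57 and 67.05 CPM in the controls and 49.88, 49.2 and 48.99 CPM with TEPA, a log2 fold change of -0.43 ± 0.08 with an adjusted p of 0.087. Neither gene overlapped between groups and neither was called.

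The motif TGACNNNGC, a core of the antioxidant response element that NRF2 binds, was searched on both strands of the same 250-base windows. Of the 29 tested NRF2 targets, 19 had 24 windows in the RefSeq table, of which 5 held the motif (20.8%, beside 10.9% of all windows). The metal response core was in 10 of these 24 windows (41.7%, beside 24.8% of all). HMOX1, TRIM16L and SLC7A11 had no window. The NQO1 window held neither motif, while those of GCLM and ME1 held the antioxidant core. Those of TRIM16, ABHD4 and CLIC3, called genes outside this list, held no antioxidant core. The metal core was in the windows of TRIM16 (1 match) and CLIC3 (3 matches) and not in that of ABHD4.

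Genes of cholesterol synthesis also lay mostly on the lower side, with no member called. All 21 listed enzymes were tested, 17 had a negative log2 fold change and the median was -0.17. The TEPA libraries lay below all controls in 11 of them (52.4%, beside 7.26% of all genes), and 9 had an unadjusted p under 0.05 (4.15% of all genes). The largest was CYP51A1, the lanosterol demethylase, at 71.12, 76.56 and 61.7 CPM in the controls and 55.74, 49.44 and 55.4 CPM with TEPA (log2 fold change -0.38 ± 0.09, edgeR adjusted p = 0.312). FDFT1, the squalene synthase, measured 149.1, 140.4 and 146.4 CPM against 122.3, 123.7 and 116.3 CPM (log2 fold change -0.27 ± 0.07, adjusted p = 0.376). HMGCS1, which makes the precursor HMG-CoA, and ACAT2, which makes acetoacetyl-CoA, had log2 fold changes of -0.36 ± 0.10 and -0.28 ± 0.08. Without control 3, 6 members were called lower, and with the GC and length correction 0 were. The sterol response element, TCACNCCAC, was searched in the same way as the motifs above. Of these enzymes 16 had 21 windows, of which 0 held it, beside 0.883% of all windows. At so low a share, a count of 0 says little.

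**Figure D3:**
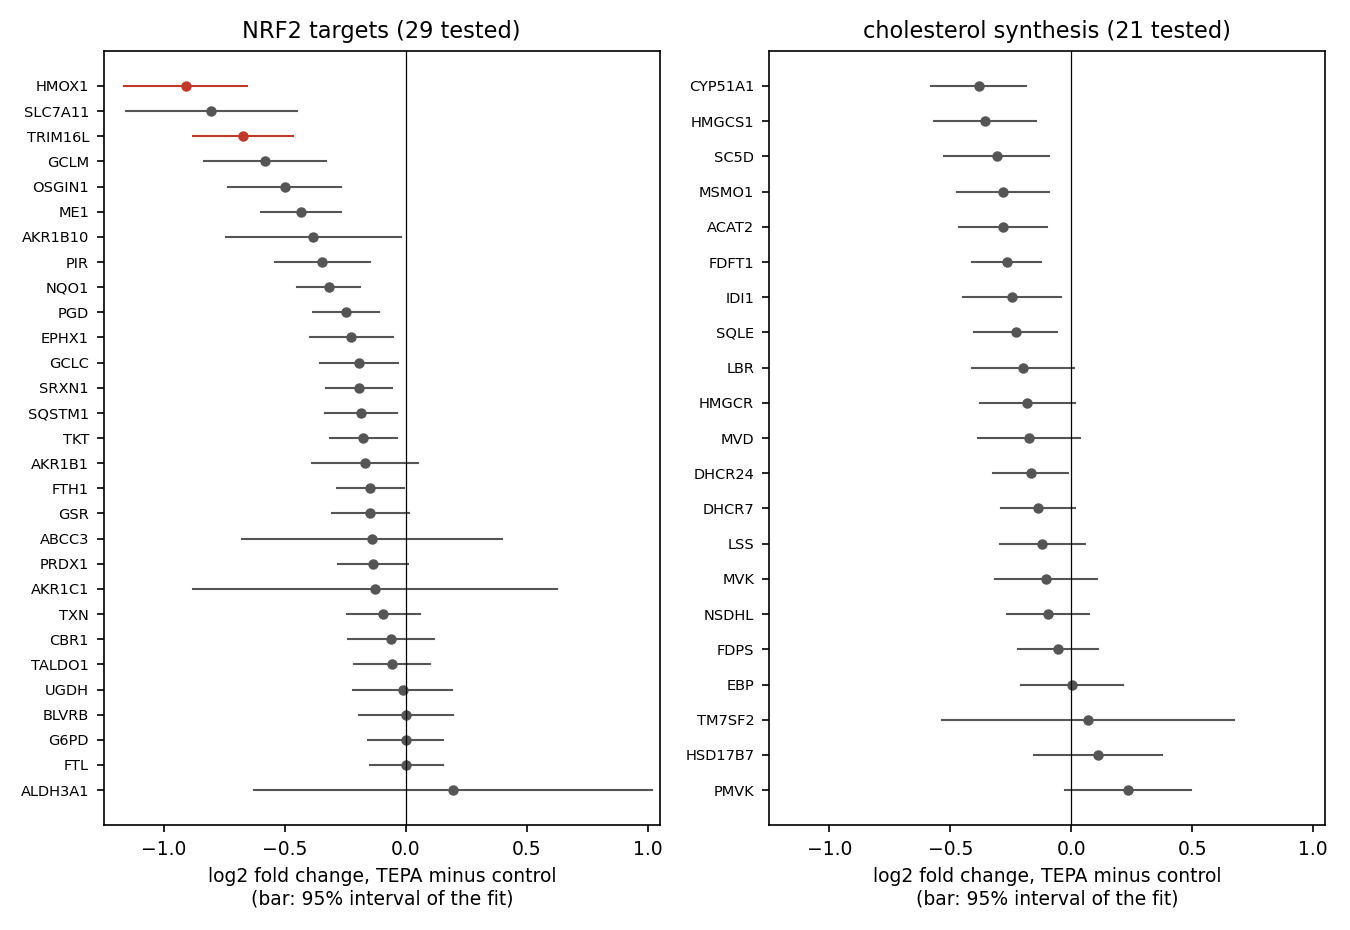
Log2 fold change (TEPA minus control, x axis) with its 95% interval for each tested NRF2 target (29, left) and cholesterol synthesis gene (21, right), with called genes in red. In the left panel 27 of 29 points lie below 0 and in the right panel 17 of 21.

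Other sterol and lipid genes were counted in the same way. Of 14 tested genes of sterol sensing and uptake, 5 were negative, 0 lay apart in the lower direction and the median was 0.03. Among them INSIG1, the sterol-regulated anchor of SREBP processing, had 55.97 ± 3.372 and 51.34 ± 1.959 CPM. Of 17 fatty acid synthesis genes, 12 were negative, 4 lay apart in the lower direction (23.5%, beside 7.26% of all genes) and 1 in the higher, and the median was -0.09. The latter, ACSL3, an acyl-CoA synthetase of lipid droplets, had 3.403 ± 0.7607 CPM in the controls and 5.049 ± 1.756 CPM with TEPA (log2 fold change 0.59 ± 0.24). ACSL1, another synthetase of that family, had 33.89 ± 2.084 and 28.4 ± 0.7039 CPM, and ACLY, which supplies cytosolic acetyl-CoA, had 320.1 ± 14.57 and 286.8 ± 5.098 CPM. None of the genes in these lists was called. The difference between the lists was not tested.

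The 2 genes that rose encode a keratin and a chloride channel family protein. KRT15 (chromosome 17, 41513745 to 41518890), a keratin of basal epithelial cells, measured 21.98, 21.88 and 22.49 CPM in control 1 to 3 and 33.76, 34.71 and 34.51 CPM in TEPA 1 to 3. Both groups were tight and far apart, with a log2 fold change of 0.63 ± 0.08 (95% interval 0.45 to 0.81), or 55.1% higher, and an edgeR adjusted p of 0.0137. CLIC3 (chromosome 9, 136994608 to 136996568), a member of the chloride intracellular channel family, measured 19.07, 17.95 and 21.05 CPM in the controls and 31.15, 29.98 and 29.7 CPM with TEPA. Its log2 fold change was 0.65 ± 0.09, or 56.6% higher, with an edgeR adjusted p of 0.0189.

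Epithelial markers of the A549 side were looked at beside KRT15, which is not in that list. Of 20 listed epithelial genes 6 could be tested, 4 had a positive log2 fold change and none was called. Their summed level was 6801, 5784 and 7620 CPM in control 1 to 3 and 7259, 7853 and 7549 CPM in TEPA 1 to 3, so the groups overlapped. KRT7 had the largest share, with 4125 ± 680.5 CPM in the controls and 4911 ± 238.7 CPM with TEPA, while EPCAM stayed at or below 0.6778 CPM. Their part in the KRT15 difference was not tested. In bulk RNA, more cells with a gene and more RNA per cell cannot be told apart.

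The next genes on the higher side were not called. WWC3, a regulator of the Hippo pathway, measured 29.58, 28.57 and 27.54 CPM in the controls and 43.36, 38.9 and 38.57 CPM with TEPA (log2 fold change 0.50 ± 0.09, edgeR adjusted p = 0.081). MAMDC4, an apical endosomal protein, had 16.76 ± 0.4247 CPM in the controls and 23.37 ± 1.603 CPM with TEPA. Neither gene overlapped between groups.

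NOS3, the endothelial nitric oxide synthase, measured 383.1, 389.6 and 381.1 CPM in the controls and 490.9, 474.9 and 445 CPM with TEPA. The controls were tight and all treated libraries lay above them, with a log2 fold change of 0.29 ± 0.06 (95% interval 0.16 to 0.42) and an edgeR adjusted p of 0.221. KLF2, a flow-responsive transcription factor of endothelium that acts upstream of NOS3, measured 234.8, 220.9 and 263.6 CPM against 327.4, 303.1 and 267.9 CPM, with control 3 just below TEPA 3. Its log2 fold change was 0.32 ± 0.09 (adjusted p = 0.431). Across 19 tested endothelial markers none was called, 11 were negative and the median was -0.02. In this list 3 lay apart in the higher direction and 1 in the lower, beside 6.49% and 7.26% of all genes. The lower one, SOX17, had 7.187 ± 0.3382 CPM in the controls and 5.219 ± 0.7724 CPM with TEPA (log2 fold change -0.44 ± 0.15). The summed level of the endothelial markers ran from 5261 to 6032 CPM in the controls and from 5744 to 5941 CPM with TEPA.

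**Figure D4:**
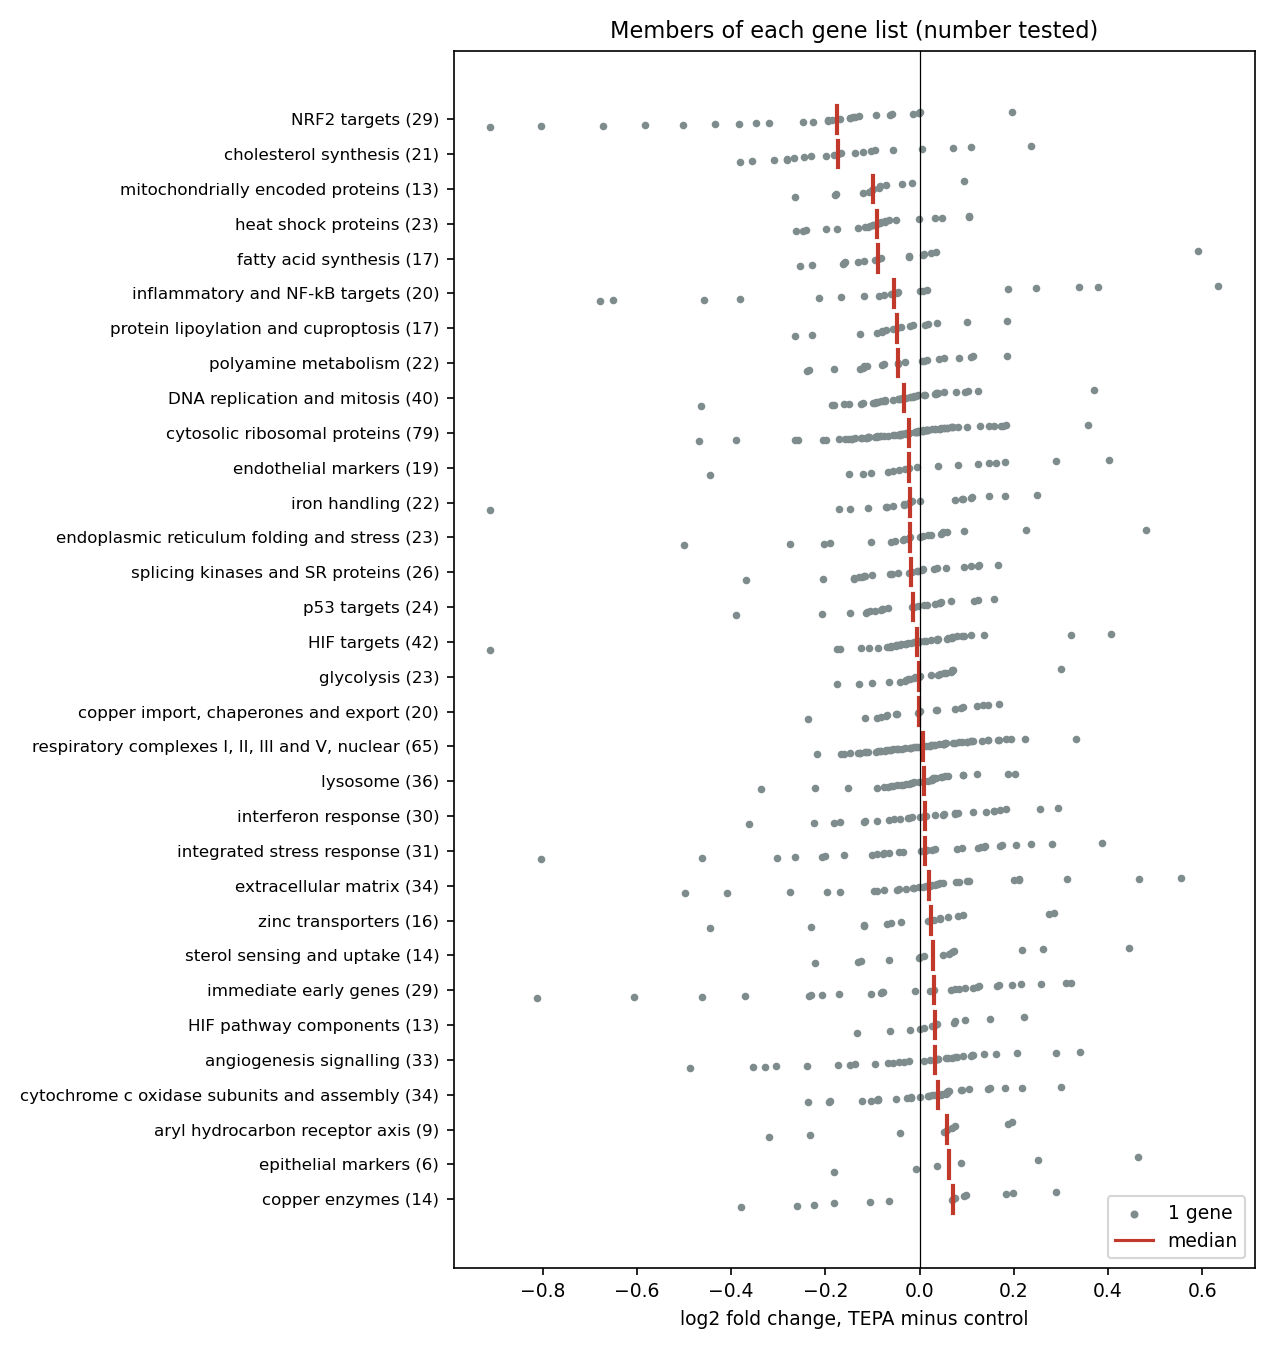
Log2 fold change (TEPA minus control, x axis) of every tested member of each gene list with at least 5 tested members, 1 grey point a gene, with the median as a red bar. The medians of NRF2 targets (-0.18) and cholesterol synthesis (-0.17) lie farthest from 0; metallothioneins are not drawn because 3 members were tested.

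Genes that move copper showed no call and no common direction. Of 24 listed genes of copper import, chaperones and export 20 were tested, 10 had a negative and 10 a positive log2 fold change, and the median was -0.0001655. SLC31A1, the copper importer, measured 50.18, 57.26 and 54.42 CPM in the controls and 51.36, 52.07 and 50.4 CPM with TEPA. The treated libraries lay within or next to the control range, and the log2 fold change was -0.07 ± 0.08 (95% interval -0.24 to 0.10). ATOX1, the chaperone that hands copper to the export pumps, had 35.89 ± 5.789 and 40.42 ± 2.518 CPM. CCS, the chaperone for superoxide dismutase 1, measured 27.72, 20.18 and 27.96 CPM against 26.89, 28.19 and 28.34 CPM, where control 2 alone was low.

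COX17, which carries copper to mitochondria, had 24.3 ± 4.77 CPM in the controls and 26.83 ± 1.304 CPM with TEPA. COX11, which inserts copper into cytochrome c oxidase, had the lowest log2 fold change of the list. It measured 67.68, 62.95 and 67.47 CPM in the controls and 54.98, 53.81 and 59.34 CPM with TEPA, with no overlap (log2 fold change -0.24 ± 0.08, edgeR adjusted p = 0.527). The highest value of that list was that of ATOX1, at 0.17 ± 0.11. The export pumps could not be followed, since ATP7A had 17 counts in all 6 libraries and ATP7B had 0. A gene listed at or near 0 in this table is not read as silent, because genes that every cell uses were near 0 too, such as AHCY, of the methionine cycle, with 17 counts in all.

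Copper enzymes and cytochrome c oxidase were likewise without a call. Of 14 tested copper enzymes and copper-binding kinases 6 were negative and the median was 0.07. SOD1, the copper-zinc superoxide dismutase, measured 254.2, 237.7 and 278.5 CPM in the controls and 225, 250.6 and 240.5 CPM with TEPA (log2 fold change -0.11 ± 0.07). MAP2K1, a kinase of the MAPK cascade that binds copper, measured 16.25, 16.02 and 15.52 CPM against 21.14, 19.57 and 17.56 CPM, with no overlap (log2 fold change 0.29 ± 0.10, edgeR adjusted p = 0.591). LOXL1, a lysyl oxidase that cross-links elastin, had 6.876 ± 0.5845 and 5.355 ± 1.215 CPM.

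Of 34 tested subunits and assembly factors of cytochrome c oxidase, 12 were negative and the median was 0.04. Of 65 nuclear genes of the other respiratory complexes 31 were negative, with a median of 0.01. Of 13 mitochondrially encoded genes 12 were negative, with a median of -0.10 and 2 that lay apart in the lower direction (ND6 and ND2, subunits of complex I; 15.4%, beside 7.26% of all genes). ND6 measured 192.8, 219.9 and 190.9 CPM in the controls and 161, 173.2 and 168.2 CPM with TEPA. Its log2 fold change of -0.27 ± 0.07 was not called (edgeR adjusted p = 0.45).

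Genes under HIF control gave 1 call at normal oxygen. Of 42 tested HIF targets, HMOX1 was called lower and no other member was called, beside 0.0362% of all genes called lower. This is the same HMOX1 call counted among the NRF2 targets. In the HIF list 23 were negative and the median was -0.01. IGFBP3, a binding protein of insulin-like growth factors, measured 17.78, 15.84 and 18.94 CPM in the controls and 20.78, 22.14 and 22.92 CPM with TEPA (log2 fold change 0.32 ± 0.10, edgeR adjusted p = 0.527). VEGFA, the main angiogenic growth factor under HIF control (named outside the rule for named genes), measured 11.71, 12.03 and 9.682 CPM against 12.14, 13.35 and 11.34 CPM, with overlapping groups (log2 fold change 0.14 ± 0.12, 95% interval -0.13 to 0.41). Of 23 glycolysis genes 12 were negative, with a median of -0.002.

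Among 13 tested components of the pathway 3 were negative, the median was 0.03 and none was called. EPAS1, which encodes HIF-2 alpha, measured 280.2, 301.8 and 321.2 CPM in the controls and 380.2, 328.8 and 343 CPM with TEPA, with no overlap and a log2 fold change of 0.22 ± 0.07 (edgeR adjusted p = 0.552). Of 33 angiogenesis genes 14 were negative and the median was 0.03. APLN, the endothelial peptide apelin, measured 95.25, 90.58 and 114.9 CPM against 79.38, 82.06 and 73.76 CPM, with no overlap (log2 fold change -0.35 ± 0.09, adjusted p = 0.402).

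Iron, polyamine and stress genes gave 1 call, in the iron list, and it was again HMOX1. Of 22 tested genes of iron handling 13 were negative and the median was -0.02. ACO1, the cytosolic aconitase that doubles as an iron sensor, measured 161.3, 167.5 and 166.6 CPM in the controls and 142.2, 149.4 and 148.4 CPM with TEPA (log2 fold change -0.17 ± 0.06, edgeR adjusted p = 0.612). TEPA is itself a polyamine-like chain, and of 22 tested genes of polyamine metabolism 13 were negative, with a median of -0.05 and none called. SMOX, the spermine oxidase, measured 46.41, 46.87 and 49.49 CPM against 42.4, 41.24 and 37.53 CPM, with no overlap (log2 fold change -0.23 ± 0.08, adjusted p = 0.581).

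Of 23 heat shock genes 19 were negative, 7 lay apart in the lower direction (30.4%, beside 7.26% of all genes) and the median was -0.09, with none called. FKBP4, a cochaperone of HSP90, measured 188.7, 190.6 and 192.9 CPM in the controls and 170.3, 166.5 and 161.6 CPM with TEPA (log2 fold change -0.20 ± 0.06, edgeR adjusted p = 0.527). HSPA8, the constitutive HSP70, had 1201 ± 63.04 and 1064 ± 60.79 CPM.

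Of 31 genes of the integrated stress response 14 were negative and the median was 0.01. Members went both ways: ATF3, a stress-induced transcription factor, had 14.31 ± 1.195 CPM in the controls and 10.45 ± 1.336 CPM with TEPA, while PSAT1, an enzyme of serine synthesis, had 54.61 ± 0.6243 and 66.33 ± 3.084 CPM. Both lay apart between groups and neither was called. Of 23 genes of endoplasmic reticulum folding and stress 12 were negative, with a median of -0.02. Of 29 immediate early genes 13 were negative and of 40 genes of DNA replication and mitosis 27 were negative, with medians of 0.03 and -0.03. Immediate early genes also went both ways. In that list 5 lay apart in the higher direction and 6 in the lower (20.7%), beside 6.49% and 7.26% of all genes.

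The remaining lists held no called gene. Medians were -0.05 for 17 genes of protein lipoylation and cuproptosis, -0.01 for 24 p53 targets, -0.05 for 20 inflammatory and NF-kB targets and 0.01 for 30 interferon response genes. They were 0.02 for 34 genes of the extracellular matrix, 0.01 for 36 lysosomal genes and 0.06 for 9 genes of the aryl hydrocarbon receptor axis. Of the 34 matrix genes, 7 lay apart in the higher direction and 2 in the lower, beside 6.49% and 7.26% of all genes. Splicing kinases and SR proteins (26 tested) and cytosolic ribosomal proteins (79 tested) had a median of -0.02 each. The fibroblast and mural list had 4 tested members, and its summed level was 87.7 to 93.03 CPM in the controls and 90.67 to 97.97 CPM with TEPA. Its member ACTA2, smooth muscle actin, had 6.646 ± 0.9646 and 8.398 ± 0.5447 CPM. Leukocyte markers had 2 tested members and summed to at most 9.243 CPM in any library.

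Low oxygen gave a second comparison of TEPA with no TEPA, in 6 other libraries where hypoxia 2 and hypoxia 3 lay far from hypoxia 1 for several genes below. Levels are CPM scaled over all 12 libraries. TRIM16 measured 30.8, 33.43 and 31.37 CPM in hypoxia 1 to 3 and 21.26, 21.43 and 18.54 CPM in TEPA+hypoxia 1 to 3. ABHD4 measured 46.65, 43.57 and 49.19 CPM in hypoxia and 29.3, 33.28 and 28.36 CPM in TEPA+hypoxia. For both genes all TEPA libraries of either oxygen level lay below all libraries without TEPA. HMOX1 measured 24.72, 32.47 and 34.48 CPM in hypoxia and 17.65, 19.26 and 14.57 CPM in TEPA+hypoxia, again lower in each treated library.

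Over 12 libraries, 4467 of 14447 genes were called higher in TEPA+hypoxia than in hypoxia (30.9%) and 4420 lower (30.6%). In the fit without hypoxia 2 and 3, added after seeing the data, which leaves hypoxia with 1 library assumed to vary like the others, 1213 of 15195 genes were called higher in TEPA+hypoxia (7.98%) and 1090 lower (7.17%). Without hypoxia 2 and 3 the log2 fold change at low oxygen was -0.59 ± 0.13 for TRIM16 (edgeR adjusted p = 0.0189), -0.58 ± 0.15 for TRIM16L (adjusted p = 0.0254) and -0.61 ± 0.14 for ABHD4 (adjusted p = 0.0204). Over 12 libraries these were -0.64 ± 0.10, -0.74 ± 0.12 and -0.62 ± 0.12, all called. HMOX1 was called lower over 12 libraries at -0.83 ± 0.17 (adjusted p = 0.00263), and without hypoxia 2 and 3 it had -0.52 ± 0.19 and was not called (adjusted p = 0.0791). WWC3, not called at normal oxygen, was called higher in both fits, at 0.96 ± 0.12 (adjusted p = 0.00217) and, without hypoxia 2 and 3, at 0.81 ± 0.14 (adjusted p = 0.0178). NQO1 was called lower over 12 libraries, at -0.93 ± 0.15 (edgeR adjusted p = 0.00217), and had -0.49 ± 0.10 without hypoxia 2 and 3. Other NRF2 targets described above were not lower over 12 libraries. SLC7A11 was called higher, at 0.72 ± 0.28 (edgeR adjusted p = 0.0439), and GCLM and ME1 had 0.37 ± 0.26 and 0.11 ± 0.17 without a call. Without hypoxia 2 and 3, SLC7A11, GCLM and ME1 had 0.21 ± 0.27, -0.26 ± 0.17 and -0.31 ± 0.10.

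MT1E and MT1X lay within a narrow range in all 6 TEPA libraries, from different levels without TEPA. MT1E measured 53.7, 153 and 106.6 CPM in hypoxia 1 to 3 and 21.2, 21.2 and 20.36 CPM in TEPA+hypoxia, where the 3 TEPA libraries at normal oxygen had 20.86, 21.05 and 19.94 CPM on this scale. MT1X measured 40.63, 126.4 and 98.73 CPM in hypoxia and 20.68, 19.72 and 19.64 CPM in TEPA+hypoxia. MT2A measured 1045, 4055 and 2767 CPM in hypoxia and 520.4, 487.4 and 565.9 CPM in TEPA+hypoxia, which is below its TEPA libraries at normal oxygen. Without hypoxia 2 and 3, the log2 fold changes at low oxygen were -1.35 ± 0.11, -1.01 ± 0.12 and -0.99 ± 0.12 for MT1E, MT1X and MT2A (edgeR adjusted p = 0.000225, 0.00679 and 0.00679). Over 12 libraries they were -2.32 ± 0.28, -2.15 ± 0.31 and -2.32 ± 0.36 (adjusted p = 0.00217 each). MTF1 went the other way, with 12.75, 8.963 and 10.43 CPM in hypoxia and 19.81, 21.77 and 24.99 CPM in TEPA+hypoxia. It was called higher over 12 libraries (edgeR adjusted p = 0.00217). SLC30A1, not called at normal oxygen (log2 fold change -0.44 ± 0.13), had 0.46 ± 0.20 at low oxygen over 12 libraries. It was not called there either (edgeR adjusted p = 0.06). Without hypoxia 2 and 3, MTF1 and SLC30A1 had log2 fold changes of 0.81 ± 0.17 and 0.22 ± 0.22.

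Whether the effect of TEPA differed between oxygen levels was tested as an interaction over all 12 libraries, with a positive value where the log2 fold change was higher at normal oxygen. It called 3113 of 14447 genes higher (21.5%) and 2498 lower (17.3%). Without hypoxia 2 and 3 it called 0 of 15195 genes (0%) by edgeR, with 4117 at an unadjusted p under 0.05 and a smallest adjusted p of 0.0643, so the calls depend on those libraries. MT1E had 1.54 ± 0.39 (edgeR adjusted p = 0.0236) with them and 0.57 ± 0.15 (adjusted p = 0.0687) without. HMOX1, TRIM16, TRIM16L and ABHD4 had -0.08 ± 0.24, 0.04 ± 0.14, 0.07 ± 0.17 and 0.02 ± 0.16 over 12 libraries, and -0.39 ± 0.24, -0.02 ± 0.16, -0.10 ± 0.18 and 0.01 ± 0.17 without hypoxia 2 and 3. None of these 4 was called in either fit.

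KRT15 and CLIC3, which rose at normal oxygen, had other values at low oxygen. KRT15 measured 29.83, 48.64 and 43.39 CPM in hypoxia 1 to 3 and 40.43, 37.61 and 31.17 CPM in TEPA+hypoxia, with overlapping groups. CLIC3 measured 27.43, 100.7 and 83.14 CPM in hypoxia and 28.72, 23.65 and 19.37 CPM in TEPA+hypoxia. At low oxygen CLIC3 was called lower over 12 libraries, at -1.56 ± 0.35 (edgeR adjusted p = 0.00381), and was not called without hypoxia 2 and 3, at -0.19 ± 0.18 (adjusted p = 0.491). KRT15 was called in neither fit, at -0.16 ± 0.16 (adjusted p = 0.41) and 0.30 ± 0.15 (adjusted p = 0.168). The interaction was 0.80 ± 0.23 for KRT15 (edgeR adjusted p = 0.0259) and 2.21 ± 0.50 for CLIC3 (adjusted p = 0.0236) over 12 libraries. Without hypoxia 2 and 3 it was 0.34 ± 0.18 (adjusted p = 0.23) and 0.84 ± 0.22 (adjusted p = 0.0695).

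**Figure D5:**
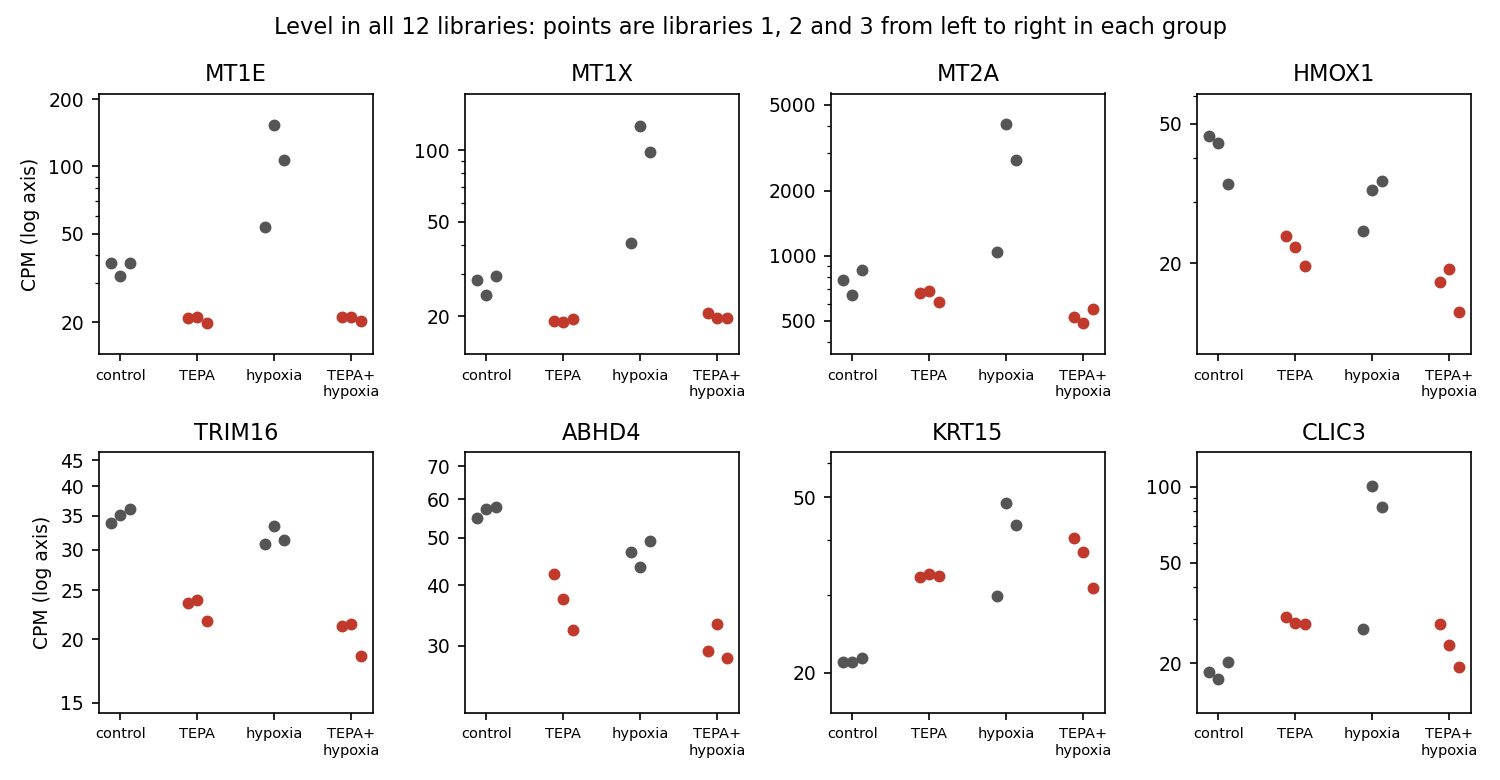
CPM (log axis, scaled over all 12 libraries) of 8 genes in control, TEPA, hypoxia and TEPA+hypoxia, with 1 point a library and TEPA groups in red. MT1E lies near 20 CPM in all 6 TEPA libraries, and hypoxia 2 and 3 stand far above hypoxia 1 for MT1E, MT1X, MT2A and CLIC3.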

How the data were processed

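Poly(A) RNA of EA.hy926 cells was sequenced from a directional kit, per the labels' protocols. Alignment by the authors used HISAT2 2.1.0 on GRCh38, with DESeq also named, per the submitters' processing notes. For the counter, the annotation and the strand setting, nothing is given in the sources used here. The authors deposited raw counts for 51141 gene symbols, with 1 column per library, and the column names match the labels.

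For the 3 TEPA and 3 control libraries, genes were filtered with filterByExpr (13821 genes, 99.89% of counts), scaled by TMM (factors 0.9949 to 1.005) and tested two-sided with edgeR 4.0.16 (quasi-likelihood F-test) in R 4.3.3, with limma 3.58.1. CPM use these factors. The SE is the log2 fold change over the square root of F. Depth was 16190579 to 24778944 counts a library, and 3 replicates a group limit the precision. Symbols matched RefSeq (GRCh38.p14) for 40269, from which coordinates, classes and promoters come, and whether the authors' annotation used the same gene models is unknown. The interaction used all 12 libraries. The script's statistics were tested on simulated data.

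Genes named are protein-coding ones of at least 5 CPM without overlap (up to 12 called in each direction, filled to 6 by p), all tested metallothionein and copper transport genes, and, from each of 35 lists, its called members and the 4 of lowest p (989 genes, 797 tested). GCLM and VEGFA were added after their values were seen. Some genes that the rule names are not reported here. The members and lists were chosen with earlier results of these data known. Alternatives were RLE and upper quartile scaling, 2 other filters, DESeq2 1.42.0, limma-voom, a replicate block, a GC and length correction, fits of 12 and 10 libraries, and each library left out. Fits at low oxygen without hypoxia 2 and 3, and the interaction with RLE, were added after seeing the data.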

Additional observations from a re-analysis of the deposited data

Results flagged for a closer look

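The interaction test over 12 libraries (edgeR quasi-likelihood test, adjusted p under 0.05) called the effect of TEPA different between normal and low oxygen for 3113 genes in the higher and 2498 in the lower direction, of 14447 (21.5% and 17.3%). Of 80 genes taken from the rule for named genes 39 passed, so passing does not set a gene apart. Listed here are those 10 that passed among the called genes, the genes next to them in p, and the metallothionein, zinc and NRF2 genes compared with low oxygen, chosen with their values known. Their values, as log2 fold change at normal minus low oxygen, were CLIC3 at 2.208, MT2A at 2.105, MT1X at 1.626, MT1E at 1.541, MAMDC4 at 0.8776, KRT15 at 0.796, NQO1 at 0.6135, SLC30A1 at -0.9017, MTF1 at -1.01 and SLC7A11 at -1.523. These calls depend on hypoxia 2 and hypoxia 3, and on other libraries too: without control 1, control 2, hypoxia 3, TEPA+hypoxia 3 or TEPA 2, edgeR called 0 genes, with 6599, 6271, 6176, 6178 and 6416 at an unadjusted p under 0.05. DESeq2 called 6649 over 12 libraries. Without hypoxia 2 and 3 the values were 0.84, 0.76, 0.49, 0.57, 0.21, 0.34, 0.17, -0.67, -0.77 and -1.02 in the same order, and none was called, with a smallest adjusted p of 0.0643 for MT2A.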

How the results depend on the processing

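All 7 called genes were also called with RLE or upper quartile scaling, limma-voom and the stricter filter (1 CPM or more in 3 libraries), each of which gave 2 higher and 5 lower, and in the settings that called more. Those were no filter (31 higher, 40 lower), the DESeq2 Wald test (8 and 17; 1608 genes had no adjusted p), and the GC and length correction without (4 and 14) and with the replicate block (4 and 12), over the 12252 genes with a value in the reference (88.6%). Leaving out 1 of the 6 libraries gave 0 to 119 higher and 0 to 104 lower. A fit of all 12 libraries gave 0 and 0 (289 genes had an unadjusted p under 0.05, and the smallest adjusted p was 0.854), and 10 libraries without hypoxia 2 and 3 gave 0 and 4. Same-numbered control and TEPA libraries deviated with correlations of -0.0139, -0.489 and -0.209. These deviations were not corrected for GC content, with which control 2 and TEPA 2 correlated at -0.572 and 0.487. They therefore cannot show whether replicate numbers pair the libraries. The replicate block gave 0 higher and 2 lower (668 genes at an unadjusted p under 0.05).

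The interaction called 5611 genes in all, 0 in the 10 libraries without hypoxia 2 and 3, and 0 to 9758 with 1 library left out. Of the named genes' fold changes under alternatives, 1255 kept direction and side of the threshold, 50 gained a call, 43 lost one and 6 changed sign. Those were CCS (-0.002605 to 0.2138 with 1 library left out), COMMD1 (-0.05578 to 0.1804) and MTF1 (-0.02236 to 0.1253), all near 0. List medians moved beyond their spread in 32 cases and not in 508. The GC correction of list medians was void for mitochondrially encoded genes and the nuclear genes of the other respiratory complexes, of which under 80% had a value. The causes of these differences were not tested.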
